A study of Rattus norvegicus with 9 samples.

Results

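The miR-9 family in these libraries consisted of 4 entries: rno-miR-9a-5p, rno-miR-9a-3p, rno-miR-9b-5p and rno-miR-9b-3p, written without the species prefix below. They were taken by name from 1759 small RNA entries, of which 764 were miRNAs, 585 piRNAs and 410 tRNA genes. No cut-off on a measured value was used to choose them, though earlier results of these data were known. Small RNAs were sequenced from rat (Rattus norvegicus) striatum, a nucleus of the basal ganglia that is injured by excess manganese. The study used 18 rats, 9 male and 9 female, that were 8 weeks old at the start. In the MMT group, rats received methylcyclopentadienyl manganese tricarbonyl, an organic fuel additive, at 4 mg/kg dissolved in corn oil, a dose that supplied about 1 mg/kg of manganese. In the MnCl2 group, rats received manganese chloride tetrahydrate at 200 mg/kg in saline at 10 ml/kg. Control rats were given the corn oil vehicle alone, at 1 ml/kg. All 3 groups were dosed by gavage on 6 days a week for 8 weeks, and each group gave 3 libraries. Since MnCl2 was given in saline and the control in corn oil, the compound and its vehicle cannot be told apart in that comparison. MMT and MnCl2 differed in compound, dose and vehicle. The labels do not state the sex of the rats that gave each library, nor if RNA was pooled, so the libraries may not be separate animals. P-values here reflect the variation among the 9 libraries alone, which could be technical.

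miR-9 is a conserved miRNA that is enriched in brain and is best known from neurogenesis. The 5p strand of its hairpin is the guide that is usually called miR-9. In mouse and human cells it represses the transcriptional repressor REST and the nuclear receptor Nr2e1 (TLX) of neural stem cells. The 3p strand, also called miR-9*, represses CoREST, a partner of REST. In rat striatal neurons miR-9 has been linked to the splice variants of the BK potassium channel that remain after exposure to ethanol. In the rat annotation each miR-9a hairpin overlaps a hairpin on the opposite strand, the gene Mir3597, whose products are named miR-9b. The names follow the arm of each hairpin, so miR-9b-3p lies opposite miR-9a-5p and miR-9b-5p lies opposite miR-9a-3p.

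The mature sequences show what each entry could count. They are given 5′ to 3′ as RefSeq lists them (GRCr8 assembly) and were identical to the sequences in the authors' files, with the seed, bases 2 to 8, in capitals.
miR-9a-5p: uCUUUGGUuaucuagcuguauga
miR-9b-3p: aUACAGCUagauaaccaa
miR-9a-3p: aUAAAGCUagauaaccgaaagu
miR-9b-5p: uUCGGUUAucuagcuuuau
The 4 seeds differed from each other, and among the 764 miRNA entries none outside the family carried any of them. miR-9a-5p is 23 bases long, miR-9b-3p 18, miR-9a-3p 22 and miR-9b-5p 19.

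The overlap between antisense partners covered the whole of each miR-9b entry. In the next lines the capitals mark the bases of the miR-9a entry whose reverse complement is the miR-9b entry.
miR-9a-5p opposite miR-9b-3p: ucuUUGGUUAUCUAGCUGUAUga
miR-9a-3p opposite miR-9b-5p: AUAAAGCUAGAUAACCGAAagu
All 18 bases of miR-9b-3p were the complement of bases 4 to 21 of miR-9a-5p. All 19 bases of miR-9b-5p were the complement of bases 1 to 19 of miR-9a-3p. Read on the same strand, miR-9b-5p was also close to miR-9a-5p, with 17 of 19 aligned bases identical and a longest shared run of 12. miR-9b-3p was close to miR-9a-3p in the same way, with 16 of 18 aligned bases identical and a longest shared run of 12.

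The hairpins of 1 locus show both strands of the same DNA. Capitals mark the mature sequences, with the 5p arm first in each hairpin.
Mir9-2: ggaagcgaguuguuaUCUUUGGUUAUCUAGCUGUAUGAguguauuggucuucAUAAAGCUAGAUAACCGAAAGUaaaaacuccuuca
Mir3597-2: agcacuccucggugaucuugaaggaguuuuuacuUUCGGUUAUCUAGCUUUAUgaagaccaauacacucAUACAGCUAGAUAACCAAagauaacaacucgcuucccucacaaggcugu
Mir9-2 is at chr2:15933292-15933378 on the plus strand of GRCr8, within the host gene Mir9-2hg, and Mir3597-2 is at chr2:15933279-15933396 on the minus strand. Mir9-1 is at chr2:175974971-175975059 on the plus strand, within the long noncoding RNA LOC100911992, opposite Mir3597-1 at chr2:175974962-175975069. Mir9-3 is at chr1:142849400-142849489 on the plus strand, within the long noncoding RNA Mir9-3hg, opposite Mir3597-3 at chr1:142849389-142849503. The authors' files listed 3 precursors for each of the 4 entries. All 3 loci give the same mature miR-9a sequences, so the counts of an entry cannot be assigned to a locus.

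Counts ran from 583045 to 2012769 per library. All 4 entries passed the filter on low counts, with at least 1479 counts in every library. As a description, 15 miRNAs known from neural tissue were read, all of which were detected in each group. Detection alone does not check the tissue, since all listed miRNAs of other cells were detected in each group too. The list is not one of striatal miRNAs, so it does not check the brain region. The summed level of these 15 ran from 54032 to 60119 CPM (counts relative to the library total). Sums over listed miRNAs are given without TMM scaling. Levels of single entries are given below with edgeR's TMM scaling unless stated. The summed level of 3 hindbrain and spinal cord miRNAs of the Hox clusters (miR-10a-5p, miR-10b-5p and miR-196a-5p) ran from 9.94 to 96.0 CPM.

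Each miR-9 entry and its antisense partner had nearly the same count in every library. Over the 9 libraries miR-9a-5p had 269107 counts and miR-9b-3p 269357. miR-9a-3p had 26067 counts and miR-9b-5p 26295. In MMT libraries 1, 2 and 3 the counts of miR-9a-5p and miR-9b-3p were 36258 and 36323, 18191 and 18370, and 43102 and 43009. In MnCl2 libraries they were 18926 and 18937, 23344 and 22985, and 30649 and 30611. In control libraries they were 56895 and 57521, 27360 and 27229, and 14382 and 14372. Neither entry was the higher one throughout, since miR-9a-5p exceeded miR-9b-3p in 5 of 9 libraries.

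The 3p side showed the same near equality at lower counts. For miR-9a-3p and miR-9b-5p the counts in MMT libraries were 3201 and 3152, 1809 and 1724, and 4326 and 4340. In MnCl2 libraries they were 1865 and 1869, 2206 and 2333, and 2744 and 2837. In control libraries they were 5727 and 5710, 2710 and 2774, and 1479 and 1556. miR-9a-3p was the higher entry in 3 of 9 libraries.

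As a share of the pair, miR-9a-5p took 49.7% to 50.4% of the counts and miR-9a-3p took 48.6% to 51.2%. The 95% exact (Clopper-Pearson) binomial intervals held 50% in 9 of 9 libraries for either pair, and they cover counting error only. The 2 counts of a pair differed by at most 1.85 counting errors on the 5p side and 1.89 on the 3p side. The counts of the partners were not identical in any library. How the authors placed reads that fit an entry and its reverse complement is not given in the sources used here, so reads from the plus and the minus strand cannot be told apart.

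**Figure D1:**
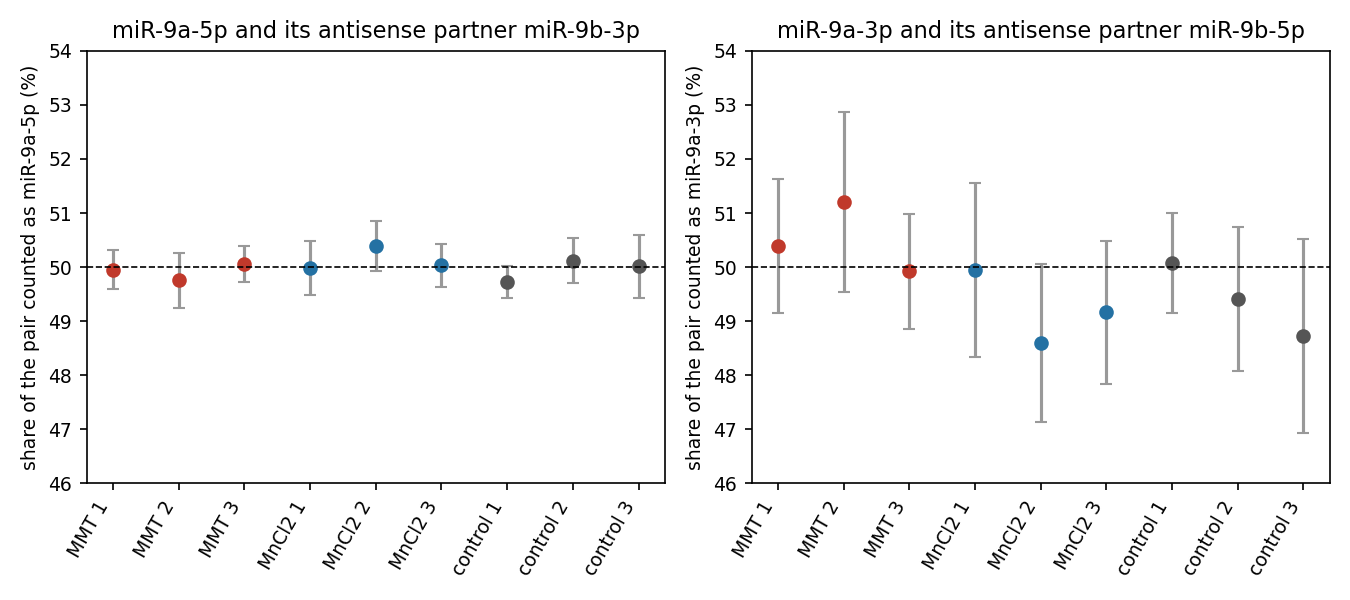
Share of each antisense pair counted as miR-9a (y axis, percent) in each library (x axis), for miR-9a-5p with miR-9b-3p on the left and miR-9a-3p with miR-9b-5p on the right. Points are single libraries, bars are 95% exact binomial intervals and the dashed line marks 50%, which lies within all 9 intervals of each panel.

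The split of the miR-9 pairs was set beside that of other antisense miRNA pairs. There were 58 other pairs, and the 5 most abundant were read first. miR-3556a took 50.02% of its counts with miR-29a-3p, with 1 listed precursor each. miR-3556b and miR-29c-3p, with 2 listed precursors each, also stood at 50.02%. let-7f-5p took 67.5% of the counts with miR-3596d, where it holds 66.7% of the listed precursors. miR-29b-3p took 70.2% of its counts with miR-3556b, against 60% of the precursors, and 75.2% with miR-3587, against 75% of the precursors. miR-29b-3p and miR-3556b each had more than 1 partner.

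Restricted to pairs in which each entry had 1 partner and which held at least 1000 counts together, 20 pairs remained. In 17 of the 20 the share of counts was within 2 percentage points of the share of listed precursors, as it was in both miR-9 pairs. Of the 16 with equal numbers of precursors, 15 were within 2 percentage points of 50%. The 3 that stood further away, named here after their values were seen, were miR-218a-5p with miR-218b (72.5% of counts, 66.7% of precursors), miR-466b-3p with miR-466b-5p (61.5% and 33.3%) and miR-466c-3p with miR-297 (71.3% and 50%). Counts that divide as the listed precursors do were thus found in most other pairs as well as in miR-9.

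**Figure D2:**
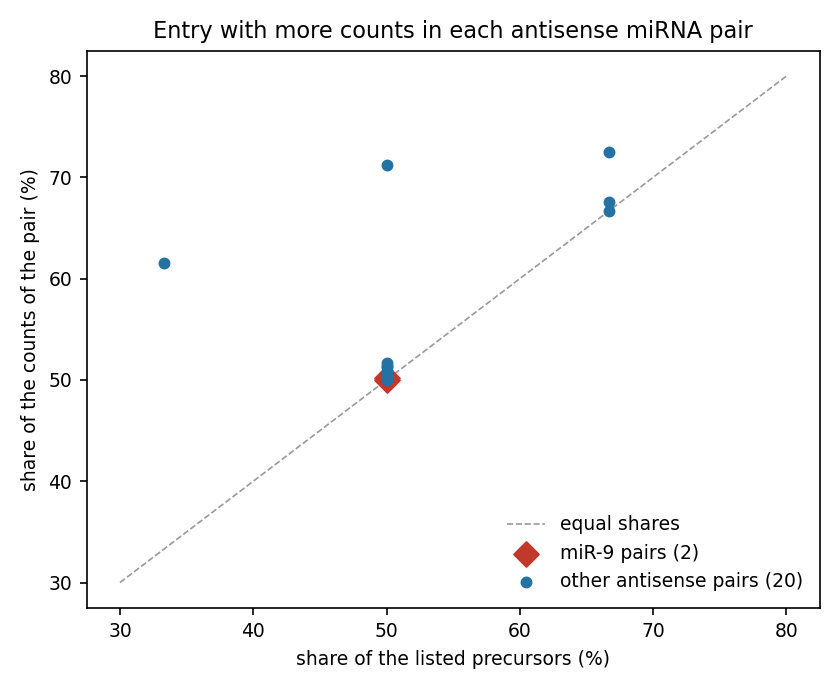
Share of the counts of an antisense miRNA pair taken by its more abundant entry (y axis, percent) against that entry's share of the precursors listed in the authors' files (x axis, percent). Diamonds are the 2 miR-9 pairs, circles the 20 other pairs with 1 partner each and at least 1000 counts, and the dashed line marks equal shares. Both miR-9 pairs and 17 of the 20 others lie within 2 percentage points of it.

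The antisense ratio did not separate the groups beyond the spread between libraries. On the 5p side, log2 of miR-9a-5p over miR-9b-3p averaged -0.0045 ± 0.0088 in MMT, 0.0078 ± 0.013 in MnCl2 and -0.0026 ± 0.012 in control libraries (SD, n = 3). Exact two-sided permutation tests gave p = 0.8 for MMT against control, p = 0.5 for MnCl2 against control and p = 0.3 for MMT against MnCl2. On the 3p side, log2 of miR-9a-3p over miR-9b-5p averaged 0.029 ± 0.038, -0.044 ± 0.039 and -0.034 ± 0.039 in MMT, MnCl2 and control libraries. The same exact permutation test gave p = 0.2, 0.7 and 0.2 in the same order of comparisons. The smallest p that 3 libraries against 3 allow is 0.1.

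miR-9 ranked near the top of the striatal small RNAs in every library. miR-9a-5p ranked between position 2 and 6 of all 1759 entries and miR-9b-3p between 3 and 6. Together the 4 made up 5.45% to 6.75% of all counts in a library, and 8.61% to 10.6% of its miRNA counts. Their share of the library was 6.02% ± 0.479 in MMT, 5.92% ± 0.720 in MnCl2 and 5.89% ± 0.406 in control libraries (SD, n = 3). Exact two-sided permutation tests gave p = 0.7 for MMT against control, p = 0.8 for MnCl2 against control and p = 1 for MMT against MnCl2. When every set of antisense partners was counted as 1, the 5p side of miR-9 (miR-9a-5p and miR-9b-3p) held 538464 counts over all libraries. It was the second most abundant miRNA set in 8 libraries and the third in control 1. Ahead of it over all libraries was the set of miR-29b-3p, miR-29c-3p, miR-3556b and miR-3587, with 794230 counts. The 3p side (miR-9a-3p and miR-9b-5p) held 52362 counts and ranked between 23 and 27 among miRNA sets.

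The level of miR-9a-5p, the guide strand, lay in the same range in all 3 groups. It was 30909, 22845 and 30626 CPM in MMT libraries, 26164, 22830 and 32181 CPM in MnCl2 libraries, and 31661, 26767 and 21879 CPM in control libraries. The lowest library of each group lay between 21879 and 22845 CPM and the highest between 30909 and 32181 CPM, so the groups overlapped almost fully. The means were 28127 ± 4576 CPM in MMT, 27058 ± 4739 in MnCl2 and 26769 ± 4891 in control libraries (SD, n = 3). These means differed by less than the SD within any group.

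miR-9b-3p, annotated on the opposite strand, followed miR-9a-5p library by library. It averaged 28198 ± 4446 CPM in MMT, 26933 ± 4875 in MnCl2 and 26837 ± 5075 in control libraries (SD, n = 3). Its lowest and highest libraries were 23070 and 30965 CPM in MMT, 22479 and 32141 in MnCl2, and 21864 and 32009 in control. Whether it is separate evidence from miR-9a-5p cannot be told, as the antisense counts show.

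miR-9a-3p, the CoREST-directed strand, was about an order of magnitude lower. It was 2729, 2272 and 3074 CPM in MMT libraries, 2578, 2157 and 2881 CPM in MnCl2 libraries, and 3187, 2651 and 2250 CPM in control libraries. The highest and the second lowest of the 9 values were both control libraries, and the groups overlapped. The means were 2691 ± 402 CPM in MMT, 2539 ± 363 in MnCl2 and 2696 ± 470 in control libraries (SD, n = 3). miR-9b-5p, its partner, averaged 2645 ± 461 CPM in MMT, 2615 ± 350 in MnCl2 and 2753 ± 407 in control libraries. Its range was 2165 to 3084 CPM in MMT, 2282 to 2979 in MnCl2 and 2367 to 3177 in control libraries.

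**Figure D3:**
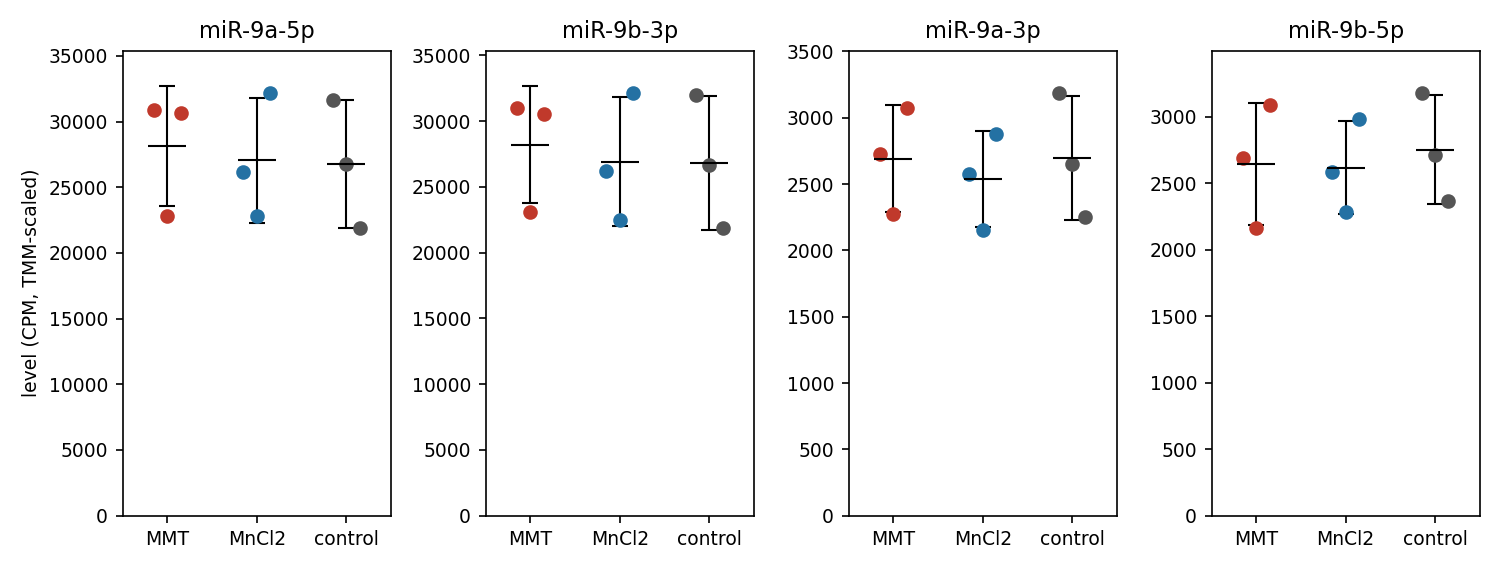
Level of each miR-9 entry (y axis, CPM scaled by TMM, from 0) in the MMT, MnCl2 and control groups (x axis). Points are single libraries in replicate order, and the horizontal line and bar are the mean and SD of 3 libraries. The groups overlap in all 4 panels, with means of 28127, 27058 and 26769 CPM for miR-9a-5p.

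None of the 4 entries passed the threshold of an adjusted p under 0.05 in any comparison (edgeR quasi-likelihood test, Benjamini-Hochberg adjustment over 1113 entries). The same held for all entries tested, with 0 of 1113 called (0%) in MMT against control, in MnCl2 against control and in MMT against MnCl2. At an unadjusted p under 0.05 there were 24 entries (2.16%), 51 entries (4.58%) and 22 entries (1.98%) in these comparisons, and no miR-9 entry was among them. DESeq2 likewise called 0 entries, with 23, 69 and 34 at an unadjusted p under 0.05.

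In MMT against control, the log2 fold change of miR-9a-5p was 0.071 (SE 0.22, 95% interval -0.40 to 0.55, adjusted p = 1.00). That of miR-9b-3p was 0.071 (interval -0.41 to 0.55). miR-9a-3p stood at -0.0029 (SE 0.18, interval -0.39 to 0.38) and miR-9b-5p at -0.058 (interval -0.44 to 0.32). The groups overlapped for 4 of 4 entries, while 4.58% of all entries tested had groups that did not overlap. Antisense partners may count the same reads, so here and below the 4 entries may not be separate outcomes.

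In MnCl2 against control, the log2 fold change of miR-9a-5p was 0.015 (SE 0.22, interval -0.46 to 0.49, adjusted p = 0.996 with edgeR). That of miR-9b-3p was 0.0050 (interval -0.47 to 0.48). miR-9a-3p stood at -0.088 (SE 0.18, interval -0.48 to 0.30) and miR-9b-5p at -0.075 (interval -0.46 to 0.31). All 4 entries overlapped between the groups, against a background of 9.7% of entries that did not. Both comparisons share the control libraries.

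In MMT against MnCl2, the log2 fold change of miR-9a-5p was 0.056 (SE 0.22, interval -0.42 to 0.53, adjusted p = 0.986 with edgeR). miR-9b-3p stood at 0.066, miR-9a-3p at 0.085 and miR-9b-5p at 0.017. Again 4 of 4 entries overlapped between the groups, against 9.07% of entries that did not. As linear folds, the 12 estimates ran from 0.941 to 1.06. Their intervals reached from 0.719 at the lowest bound to 1.47 at the highest, and 12 of 12 held a fold of 1. The bounds depended on the scaling. With total-count scaling they narrowed to 0.797 and 1.24, with SEs of 0.10 to 0.12 on the log2 scale in place of 0.17 to 0.22. With miRNA entries fitted alone they widened to 0.577 and 1.57. The p-values do not show that the groups are alike. In bulk tissue, fewer cells of a type and less RNA per cell cannot be told apart.

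**Figure D4:**
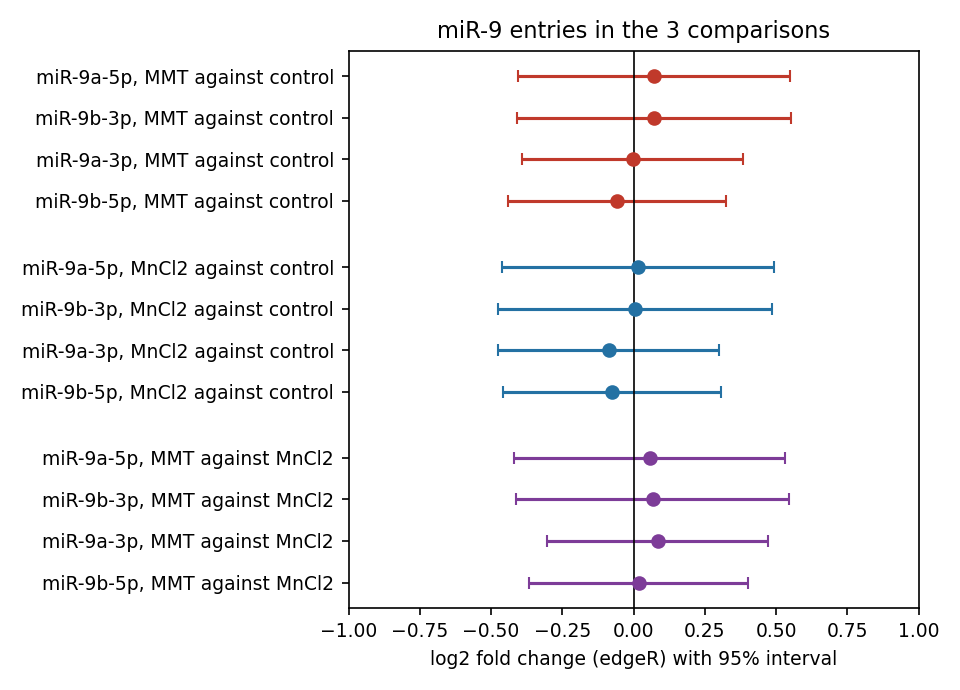
Log2 fold changes of the 4 miR-9 entries (x axis, edgeR) in MMT against control, MnCl2 against control and MMT against MnCl2 (rows). Points are estimates and bars are 95% intervals. All 12 bars cross 0, and the points lie between -0.088 and 0.085.

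The miRNAs as a class did not have a median fold change of 0, and this bears on the MnCl2 values. The median log2 fold change of miRNA entries was 0.036 in MMT against control, 0.23 in MnCl2 against control and -0.19 in MMT against MnCl2. Over all entries tested it was 0.014, 0.055 and -0.057. Set against the miRNA median, miR-9a-5p was higher by 0.036 on the log2 scale in MMT against control, stood at -0.22 in MnCl2 against control and at 0.25 in MMT against MnCl2. When miRNA entries alone were fitted and scaled, their median shifted to -0.10, -0.050 and -0.058. There the log2 fold change of miR-9a-5p was -0.074, -0.26 and 0.19, which relative to that median was 0.028, -0.21 and 0.25. The sign of miR-9a-5p against control thus flipped with the scaling. A change of scaling moves all miRNA entries by nearly the same amount. The place of miR-9a-5p relative to their median was thus nearly fixed in advance and is no separate support. No entry passed an adjusted p of 0.05 in that fit either.

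Summing antisense partners did not change this picture. With each pair counted as 1 entry and 1061 entries tested by edgeR, the 5p side had log2 fold changes of 0.088 (SE 0.26) in MMT against control, -0.024 (SE 0.26) in MnCl2 against control and 0.11 (SE 0.26) in MMT against MnCl2. The 3p side had -0.013, -0.11 and 0.10, each with an SE of 0.22. Adjusted p ran no lower than 0.901 among these 6 values.

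The spread of the miR-9 entries lay within that of other abundant miRNAs, and its size depended on the scaling. With TMM the within-group SD of log2 CPM was 0.25 for miR-9a-5p, 0.26 for miR-9b-3p, 0.23 for miR-9a-3p and 0.22 for miR-9b-5p. Among the 70 other miRNA entries of at least 1000 CPM it ran from 0.12 to 0.47 with a median of 0.28. Of these 70, 43 varied more than miR-9a-5p and 56 varied more than miR-9a-3p. Scaled by the library total alone, a setting added after seeing the data, the SD was 0.14 for miR-9a-5p, 0.14 for miR-9b-3p, 0.096 for miR-9a-3p and 0.10 for miR-9b-5p. The median of the 70 others was then 0.17, and 49 of them varied more than miR-9a-5p and 66 more than miR-9a-3p. In CPM of the total, miR-9a-5p averaged 27454 ± 2340 in MMT, 27102 ± 3353 in MnCl2 and 26708 ± 1848 in control libraries (SD, n = 3).

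The 5p side and the 3p side of miR-9 stood in a nearly fixed proportion. Each side sums entries annotated on opposite strands. Their ratio, called the arm ratio below, compares the arms of a hairpin only if these counts come from the same strand. That cannot be told here. The 5p side held 11.4, 10.3 and 9.94 times the counts of the 3p side in MMT libraries, 10.1, 10.2 and 11.0 times in MnCl2 libraries, and 10.0, 9.95 and 9.47 times in control libraries. MMT 1 had the highest ratio and control 3 the lowest. The 3p side accordingly took 8.05% of miR-9 counts in MMT 1, with a 95% exact binomial interval of 7.86% to 8.24%, and 9.55% in control 3, with an interval of 9.23% to 9.88%. As log2 the ratio averaged 3.40 ± 0.10 in MMT, 3.38 ± 0.063 in MnCl2 and 3.29 ± 0.043 in control libraries (SD, n = 3).

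The arm ratio of the MnCl2 libraries lay above that of the control libraries without overlap. The difference of means was 0.089 on the log2 scale, in an exact two-sided permutation test with p = 0.1, the smallest that the design allows, and 0.3 after adjustment over 3 comparisons. The share of the other miRNAs with both arms measured whose ratios did not overlap in that comparison was 13.6%, or 3 of 22. From miR-9a entries alone the ratio was 10.15, 10.58 and 11.17 in MnCl2 libraries and 9.935, 10.1 and 9.724 in control libraries. These were still without overlap, though narrowly. Since antisense partners may count the same reads, this is no separate check. From miR-9b entries alone it was 10.1, 9.85 and 10.8 in MnCl2 libraries and 10.1, 9.82 and 9.24 in control libraries, and the groups overlapped. MMT against control gave a difference of 0.11 (exact permutation p = 0.3) and MMT against MnCl2 a difference of 0.016 (exact permutation p = 0.8). In both, the groups overlapped, against a background of 9.09% of the other miRNAs with ratios apart.

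**Figure D5:**
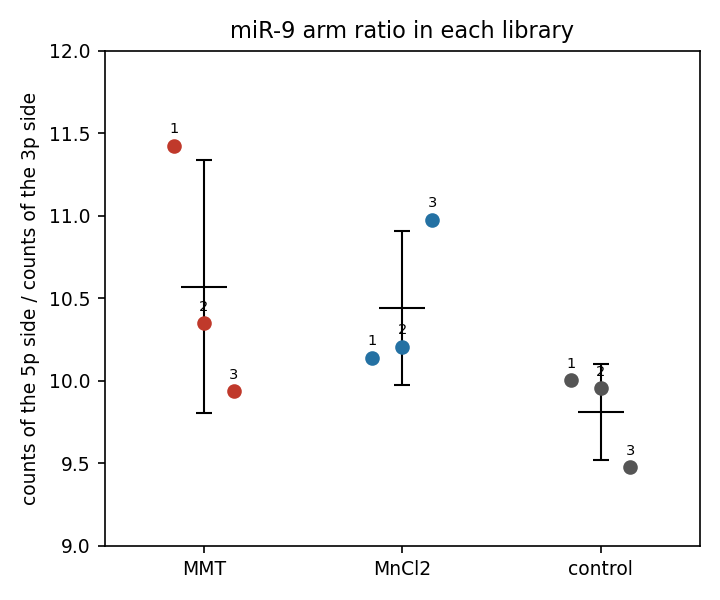
Ratio of 5p-side to 3p-side miR-9 counts (y axis, which starts at 9) in the MMT, MnCl2 and control groups (x axis). Points are libraries with their replicate number, and the line and bar are the mean and SD of 3 libraries. Control libraries lie between 9.47 and 10.0, MnCl2 libraries between 10.1 and 11.0, and MMT libraries between 9.94 and 11.4.

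Over all 9 libraries the log2 arm ratio of miR-9 spanned 0.27. The 22 other miRNAs with at least 1000 counts on either arm spanned 0.31 to 1.39, with a median of 0.64, and each spanned more than miR-9. Their less abundant arm held 1050 to 20523 counts, with a median of 2043, against 52362 for the 3p side of miR-9. None of them was counted as deeply on that arm, so depth and the narrowness of the miR-9 range cannot be told apart. The overall miR-9 ratio of 10.3 was exceeded by 3 of the 22, which were miR-124, miR-127 and miR-143, all with 3p as the abundant arm.

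The level of miR-9 ran with the library total. That relation was not computed for other miRNAs, so nothing here shows it to be particular to miR-9. All miRNAs together made up 63.4% of counts in control 1 and 64.1% in MMT 3, the libraries with most counts. They made up 56.5% in control 3 and 56.8% in MMT 2, the libraries with fewest. MnCl2 1, with 753383 counts in all, stood at 64.1%. The library with the fewest counts had the lowest miR-9a-5p in the MMT and control groups, though not in the MnCl2 group. For the correlations, levels were TMM-scaled in the fit with antisense partners summed. The summed log2 level of the 5p side correlated with the log2 total over the 9 libraries with Pearson r = 0.840 (exact permutation p = 0.00382) and Spearman rho = 0.900 (exact permutation p = 0.00203). Without control 1 and control 3, whose log2 totals lie farthest from the median, r was 0.752 over 7 libraries (exact permutation p = 0.0468). The 3p side gave r = 0.874 (exact permutation p = 0.00195) and rho = 0.867 (p = 0.00451, exact permutation), and r = 0.803 (exact permutation p = 0.0290) without the same libraries. Adjusted over the 2 sides, the Pearson p-values over 9 libraries were both 0.00382 and the Spearman values 0.00406 and 0.00451 (exact permutation tests). Without TMM scaling r was 0.645 for the 5p side (exact permutation p = 0.0627) and 0.675 for the 3p side (exact permutation p = 0.0478), both with p = 0.0627 after adjustment over the 2 sides. Over the 7 libraries without control 1 and control 3, the unscaled values were r = 0.599 (exact permutation p = 0.161) and r = 0.703 (exact permutation p = 0.0849). The relation thus passed 0.05 only with TMM scaling once adjusted. In the main fit the TMM factors ran from 0.893 in control 1 to 1.13 in control 3. That scaling raised the level in the library with most counts and lowered it in the one with fewest. The fit with antisense partners summed had its own factors, which are not given here. The labels name no batch. With the log2 total as a covariate in edgeR, the log2 fold change of miR-9a-5p was 0.05 in MMT against control, 0.12 in MnCl2 against control and -0.066 in MMT against MnCl2, and no entry was called.

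The entries whose levels ran most like miR-9a-5p over the 9 libraries were found by Pearson r of log2 CPM among 199 miRNA entries of at least 100 CPM. They were miR-384-5p (r = 0.945), miR-598-3p (0.939), miR-29a-3p (0.935), miR-30a-3p (0.934) and miR-148b-3p (0.932). Within the family, r with miR-9a-5p was 0.999 for miR-9b-3p, 0.938 for miR-9a-3p and 0.915 for miR-9b-5p. These values describe the 9 libraries, which share a range of depths, and have no test.

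Other miRNAs of neural tissue gave the setting for these values. Of the 15 on the list, 15 were tested and 0 passed an adjusted p of 0.05 in any of the 3 comparisons with edgeR. Their log2 fold changes were positive for 11 and negative for 4 in MMT against control, 11 and 4 in MnCl2 against control, and 8 and 7 in MMT against MnCl2. The medians were 0.095, 0.056 and 0.045, beside 0.014, 0.055 and -0.057 over all entries tested. Over miRNA entries they were 0.036, 0.23 and -0.19, so in MnCl2 against control the list lay below the miRNA median. The share of positive values among all miRNA entries is not given here, so the sign counts have no background. The 3 most abundant were miR-128-3p, miR-218a-5p and miR-125b-5p. miR-128-3p, which restrains neuronal excitability in mouse striatum, averaged 19463 ± 2700 CPM in MMT, 18069 ± 1552 in MnCl2 and 19384 ± 2710 in control libraries (SD, n = 3). miR-218a-5p averaged 10275 ± 1255, 9840 ± 831 and 9600 ± 1648 CPM in MMT, MnCl2 and control libraries. miR-125b-5p, known from dendritic spines of rodent hippocampal neurons, averaged 8291 ± 1678, 7801 ± 1039 and 7565 ± 2220 CPM. For each of these 3, as for miR-9a-5p, the means differed by less than the SD within any group.

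Markers of other cells were measured beside miR-9, as sums in CPM of the library total without TMM scaling. Oligodendrocyte miRNAs (4 of 4 detected) summed to 4454 to 5463 CPM in MMT, 4551 to 5613 in MnCl2 and 3893 to 5001 in control libraries. Vascular miRNAs (4 of 4) summed to 17159 to 18138 CPM in MMT, 17059 to 29557 in MnCl2 and 16235 to 18379 in control libraries. Choroid plexus miRNAs (3 of 3) ran from 273 to 1797 CPM in MMT, 289 to 1189 in MnCl2 and 332 to 1092 in control libraries. Immune miRNAs (5 of 5) ran from 1419 to 1665 CPM in MMT, 1390 to 2156 in MnCl2 and 1429 to 1448 in control libraries. Red blood cell miRNAs (4 of 4) stayed between 61.1 and 178 CPM and muscle miRNAs (3 of 3) between 59.6 and 232 CPM over all libraries. No listed marker was at 0 in a whole group, and the part of these cells in the miR-9 levels was not tested.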

How the data were processed

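Small RNAs of 9 libraries of rat striatum were analysed. The authors deposited whole-number counts per entry, with no normalization, as the unequal totals show. Per the labels' protocols, RNA of 15 to 45 nucleotides was cut from a gel and ligated to adapters of the QIAseq miRNA kit, which has molecular identifiers. Per the submitters' processing notes, Trimmomatic was used and the build was rn6. Not given in the sources used here are the aligner, mismatches, use of strand and of identifiers, and the placement of reads that fit several entries. Counts may thus hold PCR copies.

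Groups and replicate numbers came from the titles. The two-sided quasi-likelihood test of edgeR 4.0.16 (R 4.3.3) was used on 1 robust fit of all 9 libraries, after filterByExpr and TMM, with Benjamini-Hochberg adjustment at 0.05. The filter kept 1113 entries, and those left out held 0.0854% of counts. The fit gave a biological coefficient of variation of 0.279. TMM-scaled CPM are given as levels, apart from sums over listed miRNAs, which are CPM of the library total. Exact permutation tests of ratios, two-sided, used the 20 arrangements of 3 against 3. Antisense partners are miRNA entries that share at least 16 bases as reverse complements. Sequences and GRCr8 positions are from RefSeq, and no position was converted to rn6. For the arm ratio of other miRNAs, both arms needed 1000 counts, and antisense partners were not summed.

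The members and lists were chosen with earlier results of these data known. Named entries were the 4 members, any entry with their seeds, the 5 miRNAs most correlated with miR-9a-5p, the 5 most abundant other antisense pairs and the 3 most abundant of 15 neural miRNAs. Exceptions are named as chosen after their values were seen, as are the 3 miRNAs with a larger arm ratio. As alternatives, DESeq2 1.42.0, scaling by RLE or by total count, no filter or 10 CPM in 3 libraries, the 2 compared groups alone, no robust weights, miRNAs alone, the log2 total as covariate, replicate number as a block, antisense partners summed, a pseudocount of 1 in ratios and each library left out were tried. Scripts were tested on simulated counts. Python 3.11.15 was used with scipy 1.17.1, numpy 2.4.6, matplotlib 3.10.9 and pandas 2.3.3.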

Additional observations from a re-analysis of the deposited data

How the results depend on the processing

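The 12 fold changes of the miR-9 entries had 132 values under 11 alternatives apart from leaving out a library. Of these, 112 kept the sign of the value reported and 20 had the other sign. Antisense partners may count the same reads, so these values are not separate outcomes. None passed the threshold under any alternative or with a library left out, the lowest adjusted p was 0.492 and the largest fold change was 0.37 in size on the log2 scale. With miRNA entries alone, MMT against control turned to -0.074 for miR-9a-5p and -0.074 for miR-9b-3p. MnCl2 against control turned negative for miR-9a-5p with DESeq2 (-0.035), RLE (-0.035), no filter (-0.078), miRNAs alone (-0.26) and antisense partners summed (-0.024). For miR-9b-3p the same settings gave -0.046, -0.046, -0.089, -0.27 and -0.024. With the log2 total as a covariate, MnCl2 against control was 0.012 for miR-9b-5p and 0.0066 for miR-9a-3p. MMT against MnCl2 was then -0.066 for miR-9a-5p, -0.056 for miR-9b-3p, -0.028 for miR-9a-3p and -0.095 for miR-9b-5p, and with total-count scaling it was -0.024 for miR-9b-5p. The cause was not tested. Without a filter, 1 entry outside the family was called in MnCl2 against control with edgeR. The filter of 10 CPM in 3 libraries kept the same number of entries as the main fit, 1113. Its 12 values for the members were those of the main fit. They are counted among the 112 but are no separate check.

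Leaving out 1 library, MMT against control ran from -0.048 to 0.22 for miR-9a-5p, -0.050 to 0.23 for miR-9b-3p, -0.12 to 0.14 for miR-9a-3p and -0.19 to 0.082 for miR-9b-5p. MnCl2 against control ran from -0.18 to 0.16, -0.19 to 0.15, -0.27 to 0.053 and -0.24 to 0.044 for the same entries. MMT against MnCl2 ran from -0.052 to 0.26, -0.048 to 0.26, -0.022 to 0.27 and -0.11 to 0.22. The arm ratio difference ran from 0.048 to 0.15 for MMT against control, 0.053 to 0.11 for MnCl2 against control and -0.041 to 0.059 for MMT against MnCl2. The antisense ratio ran from -0.0085 to 0.0029 on the 5p side in MMT against control and from -0.030 to 0.0095 on the 3p side in MnCl2 against control. From miR-9a entries alone the arm ratio of MMT against MnCl2 was -0.027. The relation to the total did not pass after adjustment on either side without TMM scaling (r = 0.645 on the 5p side and 0.675 on the 3p side, exact permutation p = 0.0627 for both after adjustment). Interval bounds and within-group SDs narrowed with total-count scaling.

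Same-numbered libraries had deviations that correlated at 0.32, 0.33 and -0.67 in MMT against control, at -0.021, 0.062 and -0.37 in MnCl2 against control and at -0.16, 0.49 and 0.26 in MMT against MnCl2, so the numbers were not read as pairs. With the replicate number as a block, 0 entries were called in the 3 comparisons with edgeR, with 17, 42 and 15 at an unadjusted p under 0.05, and miR-9b-3p in MnCl2 against control was -0.0021. The arm ratio difference of MnCl2 against control permuted within the block gave p = 0.25 (exact permutation), the smallest that 3 pairs allow.

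The fewest counts of a miR-9 entry in a library were 1479. Groups of 3 limit each comparison, and the sex and animals behind a library are unknown.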
